A study of Mus musculus with 36 samples.

Results

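The H3K4me3 peaks that the authors listed for the comparison of CSE knockout with wild-type aortic smooth muscle cells were described, as every row of the deposited H3K4me3 comparison table. There were 469 such peaks, or 3.36% of the 13958 peaks listed for the study's 3 histone marks. The table gives for each peak its position, width, annotation and gene. It gives no signal, fold change, p-value or direction, so no listed peak can be called higher or lower in the knockout, and no test between the groups was made.

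The cells were primary vascular smooth muscle cells from the aorta of C57BL/6N mice (wild type) or of mice with a whole-body knockout of CSE. All of them, wild type included, had received 1 µM angiotensin II for 24 h, so the series has no group without it. H3K4me3 was immunoprecipitated in 3 knockout and 3 wild-type samples, each group with 3 input samples, among 36 samples in all. The labels do not say whether the 3 samples of a group came from separate animals or cultures, nor give the strain behind the knockout, and CSE was absent from every cell type of the donors. Sequencing depth is unknown, since the tables hold no value per sample. By the file's title, peaks were selected at a p of 0.05.

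CSE, cystathionine gamma-lyase, is encoded by Cth and makes cysteine and hydrogen sulfide from the products of methionine. Angiotensin II is a peptide hormone that contracts arteries and promotes growth and matrix production of smooth muscle cells. H3K4me3, trimethylation of lysine 4 of histone H3, marks nucleosomes around the start sites of active and poised genes, is written by the SET1 and MLL complexes, and lies mostly at promoters rich in CpG dinucleotides. The methyl group comes from S-adenosylmethionine, which the methionine cycle supplies. H3K9ac is another mark of active promoters, and H3K9me3 marks heterochromatin.

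Most promoters inside the listed peaks were rich in CpG, and 6 promoters are shown, with 9 to 41 CpGs. The poorest in CpG, such as that of Ak1, are not among them. Each is the 250 bases before a RefSeq start site (GRCm38.p6), 5′ to 3′, with every CpG in capitals and the whole stretch inside the listed peak. The 6 were chosen after their values were seen, among genes of the lists and of the widest peaks.
Zeb2 promoter (chr2:45117443-45117692, minus strand): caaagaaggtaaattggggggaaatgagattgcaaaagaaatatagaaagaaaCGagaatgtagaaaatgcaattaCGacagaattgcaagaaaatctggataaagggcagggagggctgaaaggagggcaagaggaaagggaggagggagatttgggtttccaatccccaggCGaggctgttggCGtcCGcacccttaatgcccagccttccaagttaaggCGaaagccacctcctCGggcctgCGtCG
Dusp5 promoter (chr19:53528895-53529144, plus strand): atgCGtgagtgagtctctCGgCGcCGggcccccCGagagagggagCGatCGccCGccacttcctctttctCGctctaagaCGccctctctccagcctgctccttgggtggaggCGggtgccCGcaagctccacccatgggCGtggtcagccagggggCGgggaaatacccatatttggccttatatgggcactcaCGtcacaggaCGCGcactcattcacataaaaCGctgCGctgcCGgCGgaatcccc
Piezo1 promoter (chr8:122551330-122551579, minus strand): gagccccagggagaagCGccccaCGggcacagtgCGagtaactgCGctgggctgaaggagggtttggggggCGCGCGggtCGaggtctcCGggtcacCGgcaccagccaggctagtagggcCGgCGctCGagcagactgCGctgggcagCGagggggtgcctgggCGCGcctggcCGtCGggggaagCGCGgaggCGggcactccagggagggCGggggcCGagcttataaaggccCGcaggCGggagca
Fbxl7 promoter (chr15:26895565-26895814, minus strand): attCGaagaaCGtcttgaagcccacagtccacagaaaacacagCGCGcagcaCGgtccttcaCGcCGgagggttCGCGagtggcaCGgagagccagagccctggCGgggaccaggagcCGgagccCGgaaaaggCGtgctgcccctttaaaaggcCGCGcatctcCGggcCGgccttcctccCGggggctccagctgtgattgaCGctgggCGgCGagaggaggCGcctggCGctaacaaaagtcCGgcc
Bub1 promoter (chr2:127831860-127832109, minus strand): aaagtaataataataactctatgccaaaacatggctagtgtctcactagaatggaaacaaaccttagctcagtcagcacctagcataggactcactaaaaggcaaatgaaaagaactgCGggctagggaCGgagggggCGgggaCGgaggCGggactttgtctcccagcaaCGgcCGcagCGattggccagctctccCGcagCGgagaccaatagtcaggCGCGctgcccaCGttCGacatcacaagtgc
Kcmf1 promoter (chr6:72899980-72900229, minus strand): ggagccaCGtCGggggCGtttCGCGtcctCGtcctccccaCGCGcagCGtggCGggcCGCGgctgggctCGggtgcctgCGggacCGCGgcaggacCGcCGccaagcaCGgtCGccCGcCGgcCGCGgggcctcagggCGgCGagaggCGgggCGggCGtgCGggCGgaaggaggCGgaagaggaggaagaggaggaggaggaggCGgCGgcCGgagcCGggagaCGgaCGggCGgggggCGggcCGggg
Zeb2 encodes a zinc-finger repressor, Dusp5 a phosphatase of ERK kinases, Piezo1 a mechanically gated cation channel, Fbxl7 a subunit of a ubiquitin ligase, Bub1 a kinase of the spindle checkpoint and Kcmf1 another ubiquitin ligase. The stretch before Zeb2 holds 9 CpGs, that of Bub1 14 and that of Kcmf1 41. The Dusp5, Fbxl7 and Piezo1 stretches hold 21, 25 and 26. In Bub1 and Zeb2 the capitals crowd toward the start site, whereas in Kcmf1 they run through the whole stretch.

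Most listed peaks lay at promoters. Of the 469 peaks, 381 were annotated within 1 kb of a start site, 17 at 1 to 2 kb and 13 at 2 to 3 kb, which together made 411 promoter peaks at 402 genes. A further 31 were distal intergenic, 21 intronic, 4 in a 3′ UTR, 1 in a 5′ UTR and 1 in an exon. Promoters made up 44.9% of the listed H3K9ac peaks and 12.3% of the listed H3K9me3 peaks. The annotated genes of 415 peaks were protein-coding, those of 13 were processed pseudogenes, of 12 lincRNAs, of 9 antisense RNAs and of 5 microRNAs.

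Peaks that held a start site mostly reached further into the gene than before it. An annotated start site lay inside 288 peaks, or 61.4% (95% exact binomial interval 56.8 to 65.8%, counting error only). Of these 288 peaks, 237 extended further downstream of the start site than upstream, with a median of 1053 bp downstream and 340.5 bp upstream. Among the peaks without a start site, 87 lay upstream of it and 94 downstream. Sgk1, a kinase induced by hormones and stress, had the widest peak, with 1463 bp before its start site and 5748 bp after it. Irx5, a homeobox factor, was the most one-sided of the 12 widest promoter peaks, with 19 bp before and 3251 bp after. Foxp1, a forkhead factor, and Ino80e, a subunit of the INO80 chromatin remodeller, had the larger part upstream, 3192 bp against 2424 bp and 2912 bp against 578 bp. So did Cdca3, Aup1 and Ccdc77 of these 12 peaks.

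**Figure D1:**
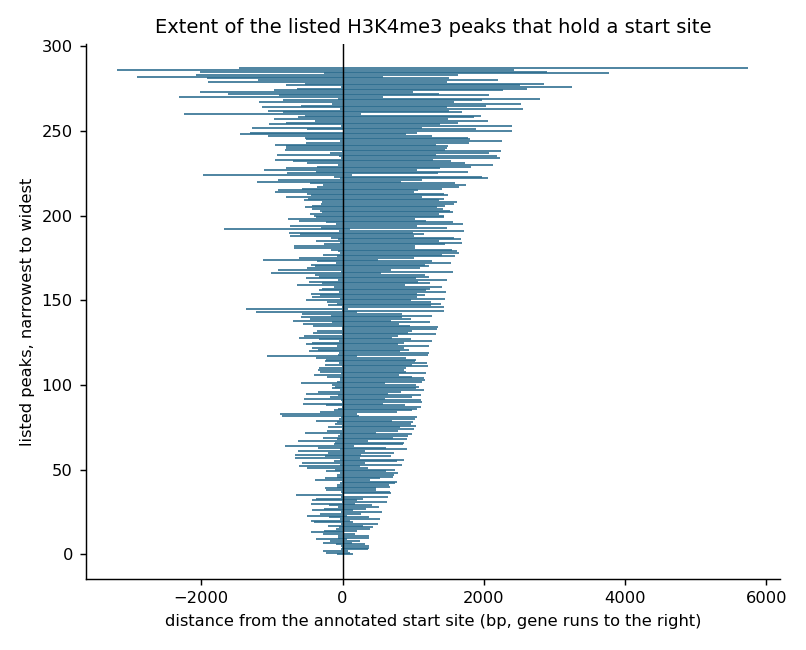
Extent of the 288 listed H3K4me3 peaks that hold an annotated start site, each a line from its upstream to its downstream end (bp from the start site), ordered by width. In 237 of them the longer side lies downstream, and the longest line is Sgk1.

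Widths ran from 182 to 7212 bp, with a median of 1104 bp and quartiles of 654 and 1679 bp. Promoter peaks had a median of 1198 bp and the other 58 peaks of 522.5 bp. Of 74 peaks of at least 2000 bp, 73 were at promoters, and the exception was a peak of 4060 bp in the 3′ UTR of Irs1, the insulin receptor substrate. The 10 widest promoter peaks included those at Sgk1 (7212 bp), Foxp1 (5617 bp), Dlx1 (4031 bp), Cdca3 (3703 bp), Ino80e (3491 bp), Aup1 (3434 bp), Ccdc77 (3393 bp), Kcmf1 (3393 bp) and Entpd1 (3387 bp). Dlx1 encodes a developmental transcription factor and Entpd1 an enzyme that hydrolyses extracellular ATP. Of these 10, 5 lay on chromosome 6. The narrowest promoter peaks were at Clps (182 bp), 2 predicted genes (202 and 206 bp), Dnal1 (222 bp) and Bak1 (229 bp).

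Genes of stress and growth responses were grouped in lists that were chosen with earlier results of these data known. For reference, 368 of 21896 RefSeq protein-coding genes, or 1.68%, had a listed promoter peak. That reference includes genes without H3K4me3 in these cells. H3K4me3 peaks that were not listed are unknown here, so the share among all genes with the mark could not be given. Whether any list exceeds that share was not tested. The immediate early list, genes switched on within minutes to hours of a stimulus, had 6 of 39 members: Sgk1, Egr3, Klf10, Nr4a1, Btg2 and Zfp36l2. Egr3 and Klf10, both zinc-finger factors, had 2 listed peaks each, one covering the start site and another just upstream (Egr3: 1198 and 1274 bp; Klf10: 1536 and 1195 bp). Nr4a1, an orphan nuclear receptor, had 1 of 743 bp over its start site, while that of Btg2, an antiproliferative gene, was 311 bp wide and lay 2211 bp inside the gene. None of these 6 genes had a listed H3K9ac promoter peak, while 99 of all 402 promoter genes had one. As stated below, the H3K9ac list as analysed here lacks the peaks with the strongest evidence. An absence from it therefore cannot be read as no change.

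The p53 target list had 7 of 45 members. Mdm2, the ubiquitin ligase that degrades p53, had a peak of 1634 bp that began 1534 bp downstream of the annotated start site. Bax, a pore-forming death protein, had 751 bp beginning 1618 bp downstream, and Pmaip1, which encodes Noxa, had 519 bp. Tigar, a regulator of glycolysis, had 1465 bp, and Fbxw7, a ubiquitin ligase subunit, 1634 bp. Ak1, an adenylate kinase, had 2398 bp, and Btg2 was again counted. Bax and Pmaip1 also belong to the apoptosis list, which had 4 of 50 members, with Bak1 and the inhibitor Birc2 (871 bp).

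Vasoactive signalling had 8 of 95 members of its list. The receptors were Adra1d (an alpha-1 adrenoceptor, 1546 bp), Avpr1a (the vasopressin V1a receptor, 391 bp), Htr2a (a serotonin receptor, 2681 bp) and Npr3 (the natriuretic peptide clearance receptor, 1818 bp). Downstream of such receptors act Plcb3, a phospholipase C (1421 bp), and Itpr2, an inositol trisphosphate receptor (1759 bp). Pde3a, a cyclic nucleotide phosphodiesterase, had 449 bp and Ptgs1, a prostaglandin synthase, 2260 bp. Among ion channel genes 5 of 281 were listed (1.78%), near the 1.68% of coding genes. They were Hcn3, Kcnn1, Stim1, Piezo1 (646 and 1627 bp) and Cacna1g (a T-type calcium channel, 1721 bp). Stim1, the calcium sensor of the endoplasmic reticulum, had 1426 bp.

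Growth factor signalling had 7 of 123 members with a promoter peak: Met (the hepatocyte growth factor receptor, 2622 bp), Pdgfc (2259 bp), Fgfrl1 (1243 bp), Fgfr2, Efna2, Efna5 and Unc5c. Fgfr2 was given 2 peaks, of 1769 and 2587 bp, but the second (chr7:133120801-133123387) overlapped the RefSeq gene Ctbp2 and lay far from the first, so its gene is uncertain. Igf1r, Irs1 and Nrg1 had a listed peak outside the promoter. The Wnt list had 4 of 50, the ligands Wnt2 (488 bp), Wnt5a (2396 bp) and Wnt5b (1604 bp) and the transcription factor Tcf7l1 (2140 bp). All but Wnt5a lie on chromosome 6, which held 18.8% of listed peaks and 5.21% of protein-coding genes. The hydrogen sulfide and methionine list had 3 of 44. They were Mat2a, which makes S-adenosylmethionine (1072 bp, 264 bp upstream of the start site), Mthfd2, a mitochondrial folate enzyme (2027 bp), and Sms, spermine synthase (1199 bp). Mat2a and Mthfd2 also lie on chromosome 6. Cth had no listed H3K4me3 peak, and the nearest, at Ctbs, lay 11.4 Mb away.

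Genes of the nucleus and of proliferation were listed as well. The replication and repair list had 5 of 116 members (Atr, Gins1, Mcm2, Pole4 and Ung), the cell cycle list 3 of 92 (Bub1, Cdk6 and Sirt1) and the splicing list 6 of 141 (Hnrnpl, Pabpn1, Ptbp1, Rbm15, Snrpg and Srsf10). The chromatin remodelling list had 3 of 62, Ino80b and Ino80e of the INO80 complex and the helicase Ruvbl1 that belongs to it. Ino80b and Ruvbl1 lie on chromosome 6. Ubtf, the ribosomal RNA transcription factor, had 3 listed peaks side by side, of 1282, 2248 and 1565 bp, each reported over a start site of the gene. None of 41 genes for writers, erasers and subunits of H3K4 methylation had a listed peak, which at 1.68% of coding genes is close to the background.

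Developmental transcription factors were also listed. Of 193 homeobox, Fox, Sox and T-box genes 13 had a promoter peak, among them Alx4, Dlx1, Foxb2, Foxc2, Foxj1, Foxp1, Irx5, Nkx2-3, Pax2, Pbx3, Tbx15 and Zeb2. Among 43 Hox genes these were Hoxa3 (2241 bp), Hoxa4 (1980 bp) and Hoxb13 (674 bp). Hoxa3 and Hoxa4 lie on chromosome 6, as does Foxp1. Zinc-finger genes had 9 of 476 (1.89%) and ubiquitin ligase and protease genes 10 of 446 (2.24%). Both shares are near the 1.68% of coding genes. Predicted genes and Riken clones had 31 of 25309 (0.12%). A list of mitochondrial genes drawn by symbol pattern, mainly for carriers and complex I, had 5 of 142 (3.52%): Coq10a, Ndufa5, Slc25a13, Slc25a43 and Timm50. Of these, Coq10a and Timm50 are neither. The list of cilium and microtubule genes, also drawn by symbol, had 5 of 402 (1.24%) and takes in the kinase gene Map4k2. The ubiquitin list had 4 of 93 (Birc2, Fbxw7, Mdm2 and Pias4), and the remaining lists had 3 promoter genes or fewer.

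Marker genes of cell types were too few to read an absence from, given that 1.68% of coding genes were listed. None of 23 contractile and none of 16 synthetic smooth muscle genes had one, nor any of 74 markers of endothelium, leukocytes, fibroblasts, adipocytes and Schwann cells. Since the table holds selected peaks only, this does not check the cell type. The hypoxia, lipid, circadian and olfactory receptor lists had no promoter gene either, although Hif1a, the hypoxia-inducible factor, had 2 intronic peaks of 764 and 363 bp.

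Named microRNA genes with a listed peak were Mir148a, Mir677 and Mir3083. Their mature sequences (RefSeq, GRCm38.p6) are shown with the seed, bases 2 to 8, in capitals, to show that no seed is shared.
miR-148a-3p (chr6:51269829-51269850, minus strand): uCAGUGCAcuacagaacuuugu
miR-148a-5p (chr6:51269867-51269888, minus strand): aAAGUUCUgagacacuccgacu
miR-3083-3p (chr17:26948058-26948079, minus strand): uCCGAAACauucccagccuuua
miR-3083-5p (chr17:26948093-26948114, minus strand): aGGCUGGGaauauuucagagau
miR-677-5p (chr10:128085291-128085312, plus strand): uUCAGUGAugauuagcuucuga
miR-677-3p (chr10:128085335-128085360, plus strand): gAAGCCAGaugccguuccugagaagg
The peak of Mir677 (469 bp) lay 51 bp upstream of the microRNA and overlapped Atp5b, which encodes a subunit of ATP synthase, so it can belong to either gene. The peak of Mir3083 (745 bp) lay 123 bp upstream. The 2 peaks given to Mir148a (1390 and 1353 bp) were intergenic, 96.98 and 95.36 kb from it, and lay in 1 H3K9ac peak of 7181 bp.

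Peaks far from start sites were few: 28 lay over 10 kb from one. The farthest was an intronic peak of 354 bp at Nrg1, a ligand of ErbB receptors, 154.1 kb from the start site used. Next were Gm9368 (139.6 kb), Mir148a, Gm38328 (69.3 kb), Htr4 (47.6 kb), Ostm1 (45.3 kb), Gm8938 (39.3 kb), Catspere2 (32.2 kb) and Fat1, an atypical cadherin (30.3 kb). Between them the 10 farthest peaks were 241 to 1390 bp wide.

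Listed peaks were unevenly spread over chromosomes. Chromosome 6 held 88, or 18.8%, and 5.21% of protein-coding genes, which is 7.82 peaks per 100 coding genes against 2.17 over all 20 chromosomes. Chromosome 10 had 4.50 and chromosome 15 had 4.38 per 100, while chromosome 4 had 0.527 and X 0.725. Chromosome 6 was not a single cluster: its peaks ran from 3.76 to 148.9 Mb, with a median gap of 0.579 Mb, and the longest gap, 13.7 Mb, lay between Gxylt2 and Hrh1. Over the genome 371 peaks had no listed neighbour within 100 kb, and only 7 runs held 3 or more. On chromosome 6 these were Aup1, Gm42688 and Ino80b within 73.0 kb, Ccdc77, Il17ra and Tmem121b, and Grcc10, Cdca3 and P3h3. The others were Atxn7l3 with the 3 Ubtf peaks on chromosome 11 (24.3 kb), Stk11, Efna2 and Gamt on 10, Gm17382, Mir3083 and Bak1 on 17, and 2 Gm26644 peaks with Pax2 on 19.

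Peaks on chromosome 6 were also wide. The median on chromosome 6 was 1555 bp (95% interval of the median 1399 to 1801 bp), against 993 bp elsewhere (902 to 1089 bp), and among promoter peaks alone 1699 against 1095 bp. Of the 88 peaks on chromosome 6, 25 (28.4%) were at least 2000 bp wide, against 12.9% elsewhere. Chromosome 18 was at the other end, with 9 peaks of median 402 bp, none over 819 bp, and chromosome 17 had 17 of median 577 bp. Across the 20 chromosomes, however, density and median width were weakly related (Spearman rho 0.25, a description over 20 chromosomes of the same libraries). Chromosome 3, with 28 peaks, had a median of 1467.5 bp, and chromosome 15, with 34, of 1043 bp.

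**Figure D2:**
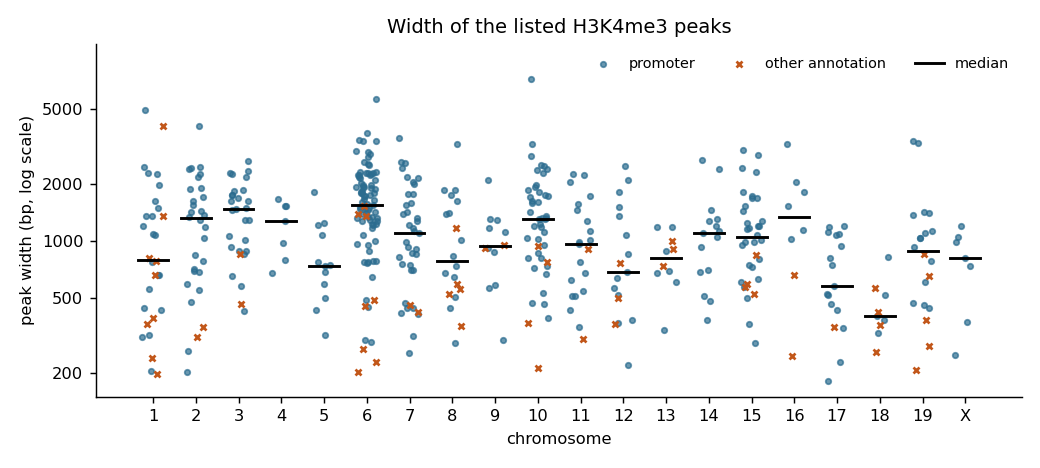
Width of every listed H3K4me3 peak (bp, log axis) by chromosome, with promoter peaks as points, other peaks as crosses and the median as a bar. Chromosome 6 has 88 peaks with a median of 1555 bp, and chromosome 18 has 9 with a median of 402 bp.

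The direction of the other marks also varied by chromosome. By the authors' deposited tables, 84.0% of H3K9ac peaks on chromosome 6, 89.4% on 10 and 86.7% on 15 were lower in the knockout, against 37.2% on 4 and 36.8% on 18. Chromosomes X (93.4%) and 7 (91.3%) had higher shares still in that deposited table, with fewer listed H3K4me3 peaks per gene than the genome as a whole. For H3K9me3 the deposited tables had 72.4%, 54.0% and 54.7% lower on chromosomes 6, 10 and 15, against 20.8% on 4 and 26.4% on 18, and 66.5% on 16, which had 1.18 listed H3K4me3 peaks per 100 coding genes. Over the 20 chromosomes the density of listed H3K4me3 peaks had a Spearman rho of 0.48 with the H3K9ac share and 0.55 with the H3K9me3 share. These are descriptions. The libraries of each mark's comparison came from the same 2 genotypes, and the part of chromosome in the width and H3K9ac values was not tested.

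**Figure D3:**
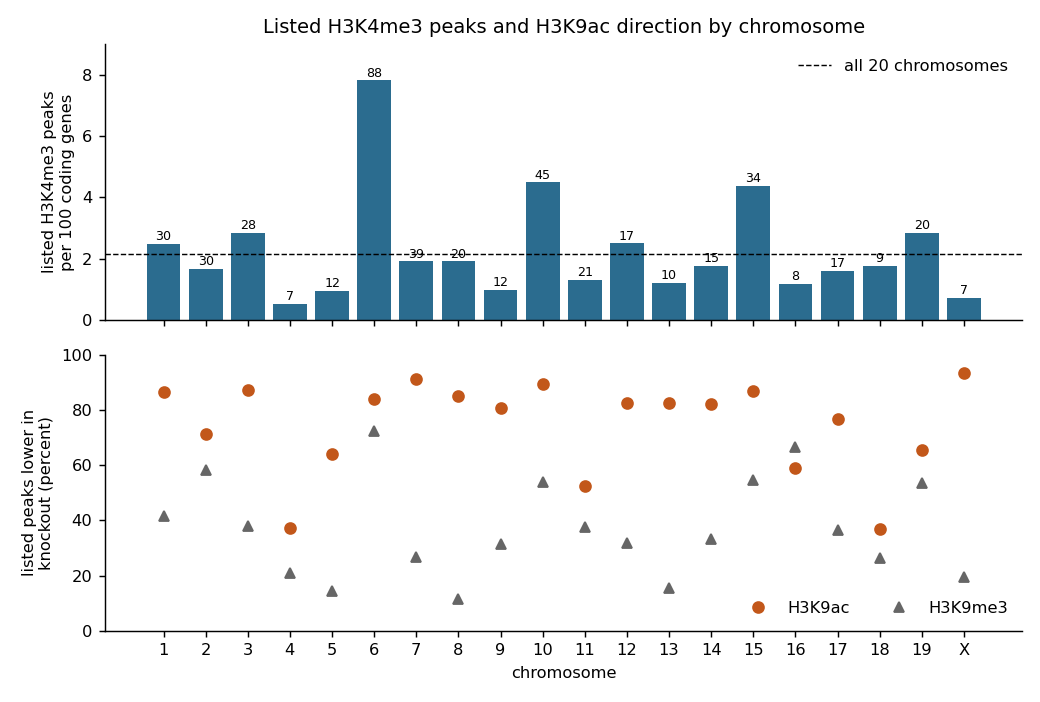
Upper panel: listed H3K4me3 peaks per 100 protein-coding genes of each chromosome, with the number of peaks above each bar and all 20 chromosomes together as a dashed line (2.17). Lower panel: percent of listed H3K9ac (circles) and H3K9me3 (triangles) peaks lower in the knockout. Chromosomes 6, 10 and 15 have the tallest bars.

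H3K9ac was listed at some of the same places, nearly always as lower in the knockout. Of the 469 peaks, 71 (15.1%) overlapped a listed H3K9ac peak by at least 1 bp, and 71 H3K9ac peaks (0.875% of 8115) were involved. By the authors' deposited table, 69 of these 71 were lower in the knockout and 2 higher, against 77.2% lower among all 8115 listed peaks and 79.3% among listed promoter peaks. The authors' deposited table gives 16 of the 71, or 22.5%, an FDR under 0.05, all 16 lower, against 16.6% of all listed peaks. The median of the 69 lower peaks was 1.97-fold lower (range 1.58 to 31.6), against 2.19-fold among all lower peaks in the authors' deposited table. The H3K4me3 peak usually lay within the H3K9ac peak, wholly so in 54 of 72 overlapping pairs, and covered a median of 51.5% of it.

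The overlapping H3K9ac peaks had a high signal. In the authors' deposited table their median log2 normalised reads were 8.93 in wild type and 7.96 in the knockout, against 5.61 and 5.01 over all listed peaks. Direction moved with this signal: among the other listed H3K9ac peaks 69.4% were lower below a log2 signal of 4 and 84.5% at 8 or more in the authors' deposited table. At 8 or more all 45 overlapping peaks were lower, against 442 of 523 others in the authors' deposited table. Chromosomes 6, 10 and 15 held 33 of the 71 H3K4me3 peaks involved. Without them 36 of 38 H3K9ac peaks were lower in the authors' deposited table, against 4910 of all 6551 listed H3K9ac peaks off these chromosomes. Peaks of both tables were selected by p. The H3K9ac table as analysed here has no p under 0.000101, so peaks with stronger evidence do not enter these counts, and the smallest p named below are the smallest listed. The 2 marks were compared in the same genotypes.

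**Figure D4:**
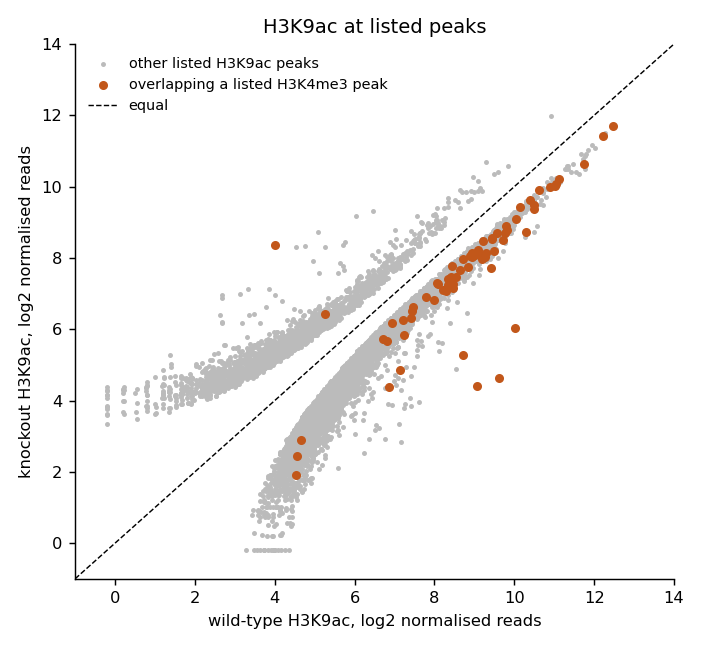
Knockout against wild-type H3K9ac signal (log2 normalised reads) at the 8115 peaks of the authors' deposited table, with the 71 that overlap a listed H3K4me3 peak in colour and equality as a dashed line. All but 2 coloured points lie under the line.

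Among the overlapping promoters, 4 showed losses of H3K9ac past 10-fold. At Igf2bp1, an mRNA-binding protein of fetal growth, H3K9ac fell from 9.62 in wild type to 4.64 in the knockout on the log2 scale, 31.6-fold lower by the authors' deposited table (FDR 0.0201). At Pcsk6, a proprotein convertase, it fell from 9.07 to 4.41, 25.3-fold lower (the authors' deposited table, FDR 0.00693). At Npr3 it fell from 10.01 to 6.03 (FDR 0.00673 in the authors' deposited table), and at Pde3a from 8.72 to 5.29, 10.8-fold lower (the authors' deposited table, FDR 0.0299). The H3K4me3 peaks there were 1449, 414, 1818 and 449 bp wide and lay inside H3K9ac peaks of 3613, 1849, 3898 and 1930 bp. Igf2bp3, a paralog of Igf2bp1, had H3K9ac 2.95-fold lower in the authors' deposited table (8.72 against 10.28, FDR 0.0163) and an H3K4me3 peak of 1986 bp.

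The other overlaps with the smallest p had smaller losses. Socs2, a suppressor of cytokine signalling, had 7.73 in the knockout against 9.42 in wild type, in the authors' deposited table (FDR 0.00625). Cand2 was 2.31-fold lower, Tmem141 2.23-fold, Fat1 (in an intron) 2.17-fold and Mycbp2 2.14-fold lower in the authors' deposited table, all with an FDR under 0.05. Wnt5a, a non-canonical Wnt ligand, was 2.60-fold lower (the authors' deposited table, FDR 0.0351). Among other list members, Adra1d, Ak1, Ccn1 (a matrix-associated signalling protein), Fbxl7, Foxc2, Hoxa3 and Zyx (zyxin, of focal adhesions) also overlapped, and the authors' deposited table puts H3K9ac there 1.66 to 2.19 times lower, each with an FDR over 0.05. The peak of 1357 bp annotated to the antisense gene Apol7d overlapped the H3K9ac peak of Fn1, which encodes fibronectin, so it may be counted under either name. The exceptions were Gm33366, where H3K9ac was 8.36 in the knockout and 4.0 in wild type, and Zfp281, at 6.43 and 5.25, in the authors' deposited table (FDR 0.0869 and 0.149). Neither higher peak thus reached an FDR of 0.05.

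Matching by gene instead of position gave 99 genes with a promoter peak in both tables. H3K9ac was lower at 91 of them, or 91.9%, in the authors' deposited table, against 78.1% of the 3053 genes with a listed H3K9ac promoter peak. The direction of a gene was that of its H3K9ac promoter peak of smallest p. In 45 of the 99 no H3K4me3 peak of the gene overlapped a listed H3K9ac peak, with a median gap of 6664 bp. In the others the H3K9ac peak counted was not always the overlapping one, as at Fam131b and Tspan9. The 8 with higher H3K9ac were C130071C03Rik, Casz1, Ginm1, Kcnn1, Plcb3, Sulf1, Zbtb20 and Zbtb38, none of which the authors' deposited table gives an FDR under 0.05, and in none did the peaks overlap under that gene's name. At Zbtb20, a zinc-finger repressor, the gap was 592 kb. Plcb3 had 6.63 in the knockout and 5.72 in wild type in the authors' deposited table, with the 2 peaks 1260 bp apart.

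H3K9me3 was listed at 3 of the 469 peaks, each of which the authors' deposited table gives as higher in the knockout with an FDR of 1. There 61% of 5374 listed H3K9me3 peaks were higher. Irx5 had H3K9me3 of 7.29 in the knockout and 2.87 in wild type (log2) in the authors' deposited table, over 1946 of the 3271 bp of its H3K4me3 peak. Dlx1 had 3.53 and −0.04 in the authors' deposited table, over 358 of 4031 bp. Gm50357, a predicted gene, had 7.64 and 4.14 in the authors' deposited table, in an intergenic peak. Both named genes are homeobox factors with some of the widest H3K4me3 peaks of the table.

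Promoters of the listed genes held more CpG than coding promoters in general. H3K4me3 lies mostly at promoters rich in CpG, and promoters with an unlisted H3K4me3 peak could not be set beside them. Whether the listed ones differ from those was therefore not tested. The ratio of observed to expected CpG, which is near 1 where CpGs have not been lost, was computed over 250 bases before to 50 after each RefSeq start site. Of the 402 promoter genes, 292 had a coding promoter in the RefSeq table, with 404 start sites. Their median ratio was 0.76 (95% interval of the median 0.73 to 0.79), against 0.57 over 21262 coding promoters and 0.68 over those of genes with a listed H3K9ac promoter peak. For the 312 start sites of genes whose start site the authors place inside the peak the median was 0.74. In the 130 promoter windows that lay wholly inside a listed H3K4me3 peak, of any coding gene, the median was 0.81, with 26 CpGs per window and 84.6% above a ratio of 0.6, against 47.6% of all coding promoters. Sinhcaf, a subunit of the SIN3 histone deacetylase complex, had the highest ratio among windows of the annotated gene, 1.21. Ak1 was the lowest, with 2 CpGs and a ratio of 0.080 in a peak of 2398 bp, followed by Trim2 at 0.39 and Tspan9 at 0.42. Peak width and the CpG ratio were hardly related over the 125 windows of annotated genes (Spearman rho 0.08, a description over promoters).

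**Figure D5:**
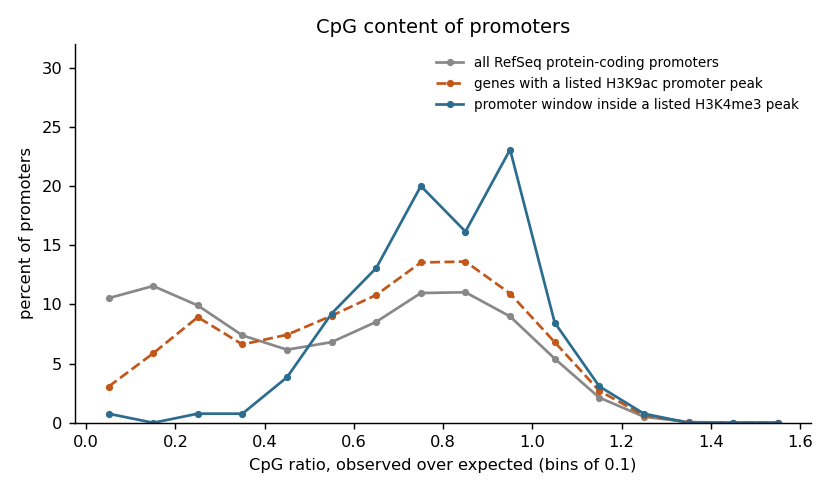
Distribution of the CpG ratio (observed over expected, bins of 0.1) as percent of promoters, for all RefSeq coding promoters, genes with a listed H3K9ac promoter peak, and windows inside a listed H3K4me3 peak. The last set has a median of 0.81, and few of its windows fall under 0.4.

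Short motifs were counted on both strands of the same windows, as letters only. The GC box GGGCGG, bound by Sp1, occurred in 64.9% of the 404 promoters and 46.2% of all coding promoters, and its letters hold a CpG. Genes with a listed H3K9ac promoter peak had it in 58.2%. The TATA box TATAAA occurred in 8.17% against 12.6%, CCAAT in 35.9% against 38.2% and the homeobox letters TAATTA in 2.23% against 4.53%. Those H3K9ac genes had 8.73%, 35.8% and 2.58%. The AP-1 letters TGANTCA were found in 4.95% against 6.99% and the CArG box of SRF in 1.24% against 1.52%. NF-kB letters occurred in 0 of 404, against 0.245% of all promoters. The Dusp5 promoter shown above holds a CArG box, a GC box and the letters TGACGT, and those of Piezo1, Fbxl7, Bub1 and Kcmf1 hold a GC box. A match of this kind is a description of the sequence, and binding was not measured.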

How the data were processed

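H3K4me3, H3K9ac and H3K9me3 were profiled by ChIP-seq. Per the submitters' processing notes, CASAVA 1.4 and the build mm9 were used. The authors' aligner, peak caller and test are, in the sources used here, not given. Per the file headers, the authors deposited for H3K9ac and H3K9me3 the log2 normalised reads of each group, the log2 fold change between them, and its p-value with an FDR, per peak. The H3K4me3 table has none of these, and the tables hold no value per sample. Peak coordinates are given as deposited. Of 308 promoter peaks whose gene has an entry in the RefSeq promoter table, 264 lay within 1 kb of that gene's GRCm38.p6 start site, so they are read as GRCm38. Symbols of 434 of 456 genes matched RefSeq. Promoter sequences of chromosome 18 were not used here, and some genes that the rule below would name are not reported here.

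Overlaps needed 1 bp. Folds were computed from the deposited log2 values. Intervals of shares are exact binomial at 95%, and those of medians are order statistics. They treat peaks as independent, which neighbours are not. Named genes were list members, the 10 widest and 5 narrowest promoter peaks, the 10 H3K9ac overlaps of smallest p and all higher ones, all H3K9me3 overlaps, runs, the 10 farthest peaks, genes with several peaks and microRNAs. The members and lists were chosen with earlier results of these data known. Python 3.11.15, pandas 2.3.3, numpy 2.4.6 and scipy 1.17.1 were used, and functions were tested on simulated data. Alternatives tried are other promoter, overlap and threshold rules and leaving out chromosomes 6, 10 and 15.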

Additional observations from a re-analysis of the deposited data

How the results depend on the processing

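No paired analysis was possible because the deposited tables hold no value per sample, and leaving out a replicate was not run for the same reason. Of 30 alternatives for 11 results, 17 stayed within 1.5 times a count or within the interval of the value. Among these, a start site within 3000 bp matches the promoter annotation already used. It gave the same promoter share of 87.6% and so says nothing on robustness. The H3K4me3 promoter share was 81.2% with the start site within 1 kb. Median width was 1198 bp at promoters, 522.5 bp elsewhere and 928.5 bp without chromosomes 6, 10 and 15. A start site lay within 500 bp of 77.2% of peaks and inside 70.1% of promoter peaks. H3K9ac peaks with an FDR under 0.05 overlapped 16 H3K4me3 peaks, and 100% of those H3K9ac peaks were lower. H3K9me3 lay within 10 kb of 10 peaks. The CpG ratio exceeded that of H3K9ac promoter genes by 0.076, against 0.19 above all promoters. Of alternatives chosen after seeing the data, windows inside a peak gave an excess of 0.24 and a GC box in 70.8%, and overlapping H3K9ac peaks of log2 signal 8 or more were lower in 100%. Depth could not be read from the tables.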

Other observations

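The authors' pathway column, which assigns KEGG pathways to genes, was filled for 146 of the H3K4me3 promoter genes and for 1016 of the H3K9ac promoter genes. The calcium signaling pathway held 15 of the 146 (10.3%), against 3.25% of the H3K9ac promoter genes. They were Adra1d, Avpr1a, Cacna1g, Cckbr, Fgfr2, Gnas, Hrh1, Htr2a, Itpr2, Met, Nfatc4, Pdgfc, Plcb3, Ppp3cb and Stim1. Gnas encodes the stimulatory G protein subunit, Hrh1 a histamine receptor, and Nfatc4 and Ppp3cb a transcription factor and the calcineurin subunit that activates it. The PI3K-Akt pathway held 17 (11.6%, against 5.91%) and Wnt signaling 11 (7.53%, against 2.66%). Those of Wnt signaling were Frat1, Ccdc88c, the corepressor Tle2 and genes named above. Metabolic pathways held 28 (19.2%, against 21.3%), focal adhesion 7 (4.79%, against 5.12%) and regulation of actin cytoskeleton 4 (2.74%, against 5.22%). The H3K9ac promoter genes are themselves a selected list, and the shares over all genes were not computed. These shares were noticed in the data, were not tested, and count a gene in every pathway that names it.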
